A study of Mus musculus with 24 samples.

Results

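The 10 pigment genes Tyr, Tyrp1, Dct, Pmel, Mlana, Slc45a2, Oca2, Mitf, Gpr143 and Slc24a5 were followed through 24 RNA sequencing libraries of mouse eye tissue. They serve melanin synthesis or mark pigment cells, were taken by name, and were all found among the 56748 genes of the table. The libraries came from 12 mice, each of which gave a neural retina and the remaining eye cup, which holds the retinal pigment epithelium (RPE), the choroid and the sclera. The mice were PRDM13-OE heterozygotes, which carry human PRDM13 at the Rosa26 locus under a dox-inducible promoter with a constitutively expressed transactivator, or their wildtype littermates. In each genotype 3 mice were untreated and 3 drank 2 mg/mL dox with 10% sucrose for 72 hours, from postnatal day 28, so dox and sucrose cannot be told apart in these groups. The 8 groups of tissue, genotype and treatment held 3 libraries each, from separate mice. The study notes minimal expression from the inducible system without dox, and the human transgene was not measured in these counts.

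Melanin is made from tyrosine in melanosomes, lysosome-related organelles of pigment cells. The eye has pigment cells of 2 origins, since the RPE forms from the optic cup and the melanocytes of the choroid come from the neural crest, and the neural retina itself makes no melanin. TYR catalyses the first steps of the pathway, DCT and TYRP1 act further along it, PMEL forms the fibrils on which melanin is laid down, and MLANA takes part in PMEL processing. OCA2, SLC45A2 and SLC24A5 are melanosomal or organellar transport proteins, GPR143 is a melanosomal receptor that affects melanosome size, and MITF is the transcription factor that activates many of the others. MITF binds E boxes of the letters CATGTG, and the extended form in pigment gene promoters is known as the M box.

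Promoter sequence was looked up in RefSeq (GRCm38.p6, 250 bases before to 50 after each gene start), where 6 of the 10 genes have an entry. Pmel, Mlana, Slc45a2 and Gpr143 were not among them. CATGTG, read on either strand, was found for 5 of the 6 genes and in 14.2% of all 32851 promoters. The longer run GTCATGTGCT, which contains it, was found for Tyr, Tyrp1 and Dct and in 0.186% of all promoters. That run was read from these 3 promoters as the longest they share around CATGTG, so its presence in all of them was fixed by how it was chosen. The 3 enzyme genes are shown because they share it while, in dox-treated neural retinas, Dct was not lower with Tyrp1. Each window is 60 bases long, 5′ to 3′ on the gene's strand, with CATGTG in capitals.
Tyr: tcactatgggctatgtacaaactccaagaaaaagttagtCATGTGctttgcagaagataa
Tyrp1: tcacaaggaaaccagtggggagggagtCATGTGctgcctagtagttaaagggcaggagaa
Dct: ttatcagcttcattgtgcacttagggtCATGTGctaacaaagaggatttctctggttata
The Tyr window lies at chr7:87493513-87493572 on the minus strand, and its match starts at position −21 from the gene start. The Tyrp1 window lies at chr4:80834140-80834199 on the plus strand, with the match at −46. The Dct window lies at chr14:118052364-118052423 on the minus strand, with the match at −150. Dct held another match in the reverse orientation (CACATG) at −232, Slc24a5 one at −13 and Oca2 one at −186. The 3 Mitf promoters held none, and CACGTG, another E box, was found for 0 of the 6 genes and in 7.15% of all promoters. A match of letters is a description of the sequence and no evidence of binding.

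In the table, which uses GRCm39, Tyr lies at chr7:87073979-87142720, Tyrp1 at chr4:80752360-80769956, Dct at chr14:118250202-118289656 and Pmel at chr10:128540064-128556107. Mlana lies at chr19:29675224-29686034, Oca2 at chr7:55889508-56186266 and Mitf at chr6:97784013-97998310. Slc45a2 lies at chr15:11000807-11029319, Gpr143 at chrX:151564917-151591642 and Slc24a5 at chr2:124910044-124930597. Dct, Pmel, Oca2, Mitf and Slc24a5 overlap a gene on the opposite strand, and whether the counting used strand is not given in the sources used here. Slc24a5 shares 4050 bases with Myef2, a gene with a median of 1133 counts in the neural retinas and 504 in the eye cups. Pmel shares 105 bases with Dgka (medians of 92 and 1050 counts) and 837 bases with Cdk2 (45 and 385 counts). The overlapping transcripts of Dct, Oca2 and Mitf had medians of 0 counts in the neural retinas.

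Libraries held 15825059 to 24908314 counts (median 17624652). RPE genes other than pigment genes marked the eye cup as labelled: Rpe65 averaged 1451 CPM there and 11.5 CPM in the neural retinas, and 10 of 10 RPE genes were higher in the eye cups, although Best1 averaged 1.62 CPM there. Of the 5 melanocyte markers that RPE lacks, Ednrb averaged 167 CPM, Sox10 119 CPM, Kit 54.2 CPM, Mc1r 1.76 CPM and Pax3 0.604 CPM in the eye cups. Between the tissues 4 of them were called higher in the eye cup and Mc1r lower, at 5.58 CPM in the neural retinas. The tissues were not pure, since rod genes summed to between 3012 and 48543 CPM in the eye cups against 47278 to 69271 CPM in the neural retinas. Lens crystallin genes (8 genes) summed to between 3.02 and 10067 CPM in the neural retinas. Mouse Prdm13 had 775 to 1097 counts in the neural retinas, and this row does not measure the human transgene, so it is no check of the genotype labels. CPM is the read count scaled to library size with TMM factors, and levels of different genes are compared only per kilobase of gene length.

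All 10 pigment genes were higher in the eye cup than in the neural retina, and in the neural retina Mitf and Slc24a5 kept more of their level than the other 8. In edgeR's quasi-likelihood test over all 24 libraries, 10 of 10 were called higher (adjusted p under 0.05 and log2-fold change past 1), where 24.2% of the 26034 genes tested were called in that direction. Their log2-fold changes ran from 2.46 (SE 0.12) for Mitf to 6.94 (SE 0.37) for Mlana, with edgeR adjusted p-values of at most 1.59e-10. For each gene the lowest eye cup lay above the highest neural retina, as it did for 15.5% of all genes tested.

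Per kilobase, Pmel had the highest mean level in the eye cups, at 358 ± 180 CPM per kb (SD, n = 12), followed by Dct at 247 ± 93.2, Mlana at 212 ± 79.8 and Tyrp1 at 159 ± 60.7 CPM per kb. Pmel was above Dct in 10 of 12 eye cups, Dct above Mlana in 9, and Mlana above Tyrp1 in 10, so the order among these 4 varied between mice. Tyrp1 was above Tyr in 12 of 12. Tyr followed at 28.7 ± 9.89 CPM per kb and Oca2 at 28.1 ± 13.3, a pair that differed by less than their spread (Tyr higher in 8 of 12). Slc24a5 was at 22.4 ± 8.24, Gpr143 at 12.5 ± 5.81 and Slc45a2 at 10.2 ± 4.04 CPM per kb, and Mitf had the lowest level of the 10, at 6.39 ± 2.69 CPM per kb.

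In the neural retinas the order over all 12 libraries was different. Dct, at 7.83 ± 3.19 CPM per kb, and Pmel, at 7.01 ± 4.63, were not separated (Dct higher in 6 of 12 libraries). Dct was above Pmel in 3 of 3 PRDM13-OE retinas with dox and in 3 of the other 9, where the mean of Pmel, 8.42 ± 4.50, was above that of Dct, 7.01 ± 3.15 (SD, n = 9). Tyrp1 came next over all 12 at 4.88 ± 2.69 CPM per kb. Mlana was at 1.90 ± 1.44, Slc24a5 at 1.69 ± 0.369 and Mitf at 1.10 ± 0.128 CPM per kb, with Mitf above Tyr in 12 of 12 neural retinas and below it in the eye cups. Gpr143 was the lowest at 0.162 ± 0.0717 CPM per kb, which rested on 3 to 12 counts per library.

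Set against the eye cup mean, the retinal mean was between 0.899% (Mlana) and 3.17% (Dct) for 8 of the genes. The other two were Slc24a5 at 7.54% and Mitf at 17.2%. The neural retinas held 102 to 160 Mitf counts and 47 to 110 Slc24a5 counts, and their CPM varied 1.47-fold and 1.95-fold. Over the same 12 neural retinas the CPM of Tyrp1 varied 16.7-fold and that of Mlana 44.4-fold. For Slc24a5 this may include reads of Myef2, with which it shares sequence.

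**Figure D1:**
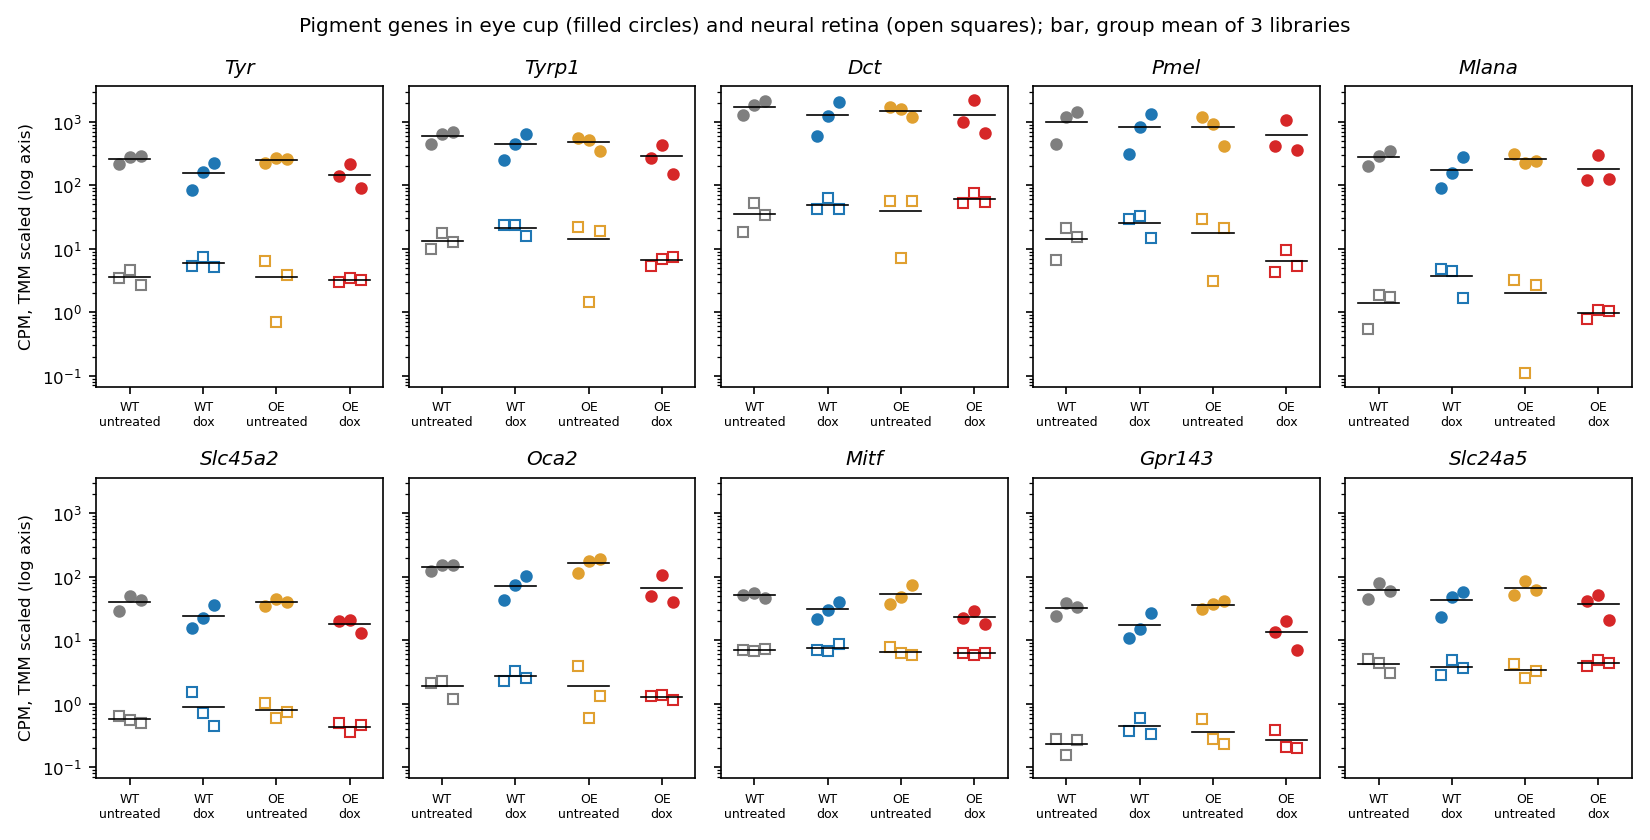
Level of each pigment gene in every library, in CPM on a log axis, by genotype (OE, PRDM13-OE; WT, wildtype) and treatment; filled circles are eye cups, open squares neural retinas and bars the means of 3 libraries. Eye cups lie above neural retinas for all 10 genes, the retinal levels of Mitf stay within 1.47-fold, and 1 untreated PRDM13-OE neural retina is low for Tyr, Tyrp1, Dct, Pmel and Mlana.

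Whether the pigment genes responded to PRDM13 in the neural retina was read first from PRDM13-OE against wildtype mice that both had dox. Tyrp1, Pmel, Mlana and Oca2 were lower in the PRDM13-OE retinas, and Dct, the most counted of the 10 genes in each of these 6 libraries, was not. Called lower were 4 of the 10, where 1.5% of the 20560 genes tested were called lower, and 0 of the 10 were called higher (0.905% of all genes). The groups did not overlap for 6 of the 10 and for 31.6% of all genes tested. In bulk tissue, fewer cells of a type and less RNA per cell cannot be told apart.

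Tyrp1, an enzyme of the later steps of melanin synthesis, was at 5.30, 6.89 and 7.51 CPM in the PRDM13-OE dox retinas and at 23.4, 23.8 and 16.1 CPM in the wildtype dox retinas. The groups did not overlap, at a difference of −1.68 on the log2 scale (edgeR adjusted p = 4.27e-05, SE 0.16). Pmel, the fibril protein, was at 4.36, 9.45 and 5.44 CPM in the former and at 29.0, 33.2 and 14.6 CPM in the latter. Its 3 wildtype values were all above the PRDM13-OE values, with the third wildtype retina nearest to them, at a log2 difference of −1.99 (edgeR adjusted p = 0.00112, SE 0.30). Robust fitting did not call Pmel, at the same difference (edgeR adjusted p = 0.0778).

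Mlana had 14, 21 and 21 counts in the PRDM13-OE dox retinas and 90, 90 and 30 in the wildtype dox retinas. Here too the third wildtype retina came closest to the PRDM13-OE group, at a log2 difference of −1.92 (edgeR adjusted p = 0.00569, SE 0.37). Oca2, an anion transport protein of the melanosome, had 24, 27 and 23 counts against 42, 66 and 45. Its groups did not overlap, and its log2 difference of −1.06 (edgeR adjusted p = 0.0146, SE 0.24) lay close to the cutoff. With all 12 neural retinas in one fit, Mlana (−1.91, edgeR adjusted p = 0.0696) and Oca2 (−1.06, edgeR adjusted p = 0.168) were not called.

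Tyr, the first enzyme of the pathway, was at 2.98, 3.49 and 3.17 CPM against 5.35, 7.40 and 5.23 CPM. The groups did not overlap, and the log2 difference of −0.90 (edgeR adjusted p = 0.00767, SE 0.18) was short of the fold cutoff, so Tyr passed the adjusted p alone, as did 7.51% of all genes in that direction. Dct was at 52.3, 74.7 and 55.0 CPM with the transgene and at 42.2, 62.1 and 42.9 CPM without, groups that overlapped, at a log2 difference of 0.30 (edgeR adjusted p = 0.234, SE 0.15). Mitf differed by −0.27 (SE 0.14, edgeR adjusted p = 0.247) without overlap between the groups, at 5.91 to 6.35 CPM against 6.74 to 8.63 CPM. Slc45a2 (−1.01, SE 0.48), Gpr143 (−0.74, SE 0.53) and Slc24a5 (0.22, SE 0.21) had overlapping groups and were not called.

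Lens transcripts moved with this comparison. The 8 crystallin genes summed to 10067, 4167 and 90.5 CPM in the wildtype dox retinas and to 13.9, 22.3 and 3.02 CPM in the PRDM13-OE dox retinas, and 8 of 8 were called lower. The crystallin sums did not overlap, so crystallin level and genotype can hardly be told apart in a fit that holds both. With the crystallin level as a covariate, Tyrp1 alone of the 10 genes was called (0.627% of all genes were called lower), and the log2-fold changes of Pmel, Mlana and Oca2 were −0.69, −0.29 and −0.93 (edgeR adjusted p = 0.366, 0.845 and 0.358). Without the wildtype dox retinas 1 and 2, an alternative chosen after seeing the data in which the lone wildtype retina is assumed to vary like the others, Tyrp1 and Pmel were called lower (0.955% of all genes), while Mlana (−0.78, edgeR adjusted p = 0.302) and Oca2 (−0.96, edgeR adjusted p = 0.120) were not. The part of lens tissue in these differences was not tested.

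Other cell types differed by less. None of the 10 RPE genes passed both cutoffs, and 4 were lower at an adjusted p under 0.05 alone, with Rpe65 at 8.57 CPM against 12.5 CPM in the wildtype dox retinas (log2-fold change −0.55, edgeR adjusted p = 0.195). The RPE sum was 556 to 612 CPM in the PRDM13-OE dox retinas and 759 to 841 CPM in the wildtype dox retinas, without overlap, and most of it was Rlbp1, which Müller glia also express (449 against 614 CPM). Since the RPE sums did not overlap, the RPE level and the genotype can hardly be told apart in a fit that holds both. With the RPE level as a covariate, Tyrp1, Pmel and Mlana were called lower, as were 0.345% of all genes, at log2-fold changes of −3.03, −5.21 and −5.25. Oca2 was not called in that fit (edgeR adjusted p = 0.914), at a log2-fold change of −1.25, no nearer 0 than without the covariate. Rod genes were lower at an adjusted p under 0.05 alone for 7 of 10, with a median log2-fold change of −0.36. Of the melanocyte genes, Sox10 was at 0.619 CPM against 1.07 CPM (edgeR adjusted p = 0.280), Pax3 did not exceed 1 count in any neural retina, Ednrb was lower at the adjusted p alone and Mc1r was called higher (1.41). Of 7 endothelial genes, 7 were below 0 without overlap (median −0.46), 5 were lower at an adjusted p under 0.05, of which Kdr also passed the fold cutoff (−1.33). Over all genes tested, 31.6% had groups that did not overlap, and 7.51% were lower at an adjusted p under 0.05 alone. The part of these cell types in the pigment values was not tested.

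**Figure D2:**
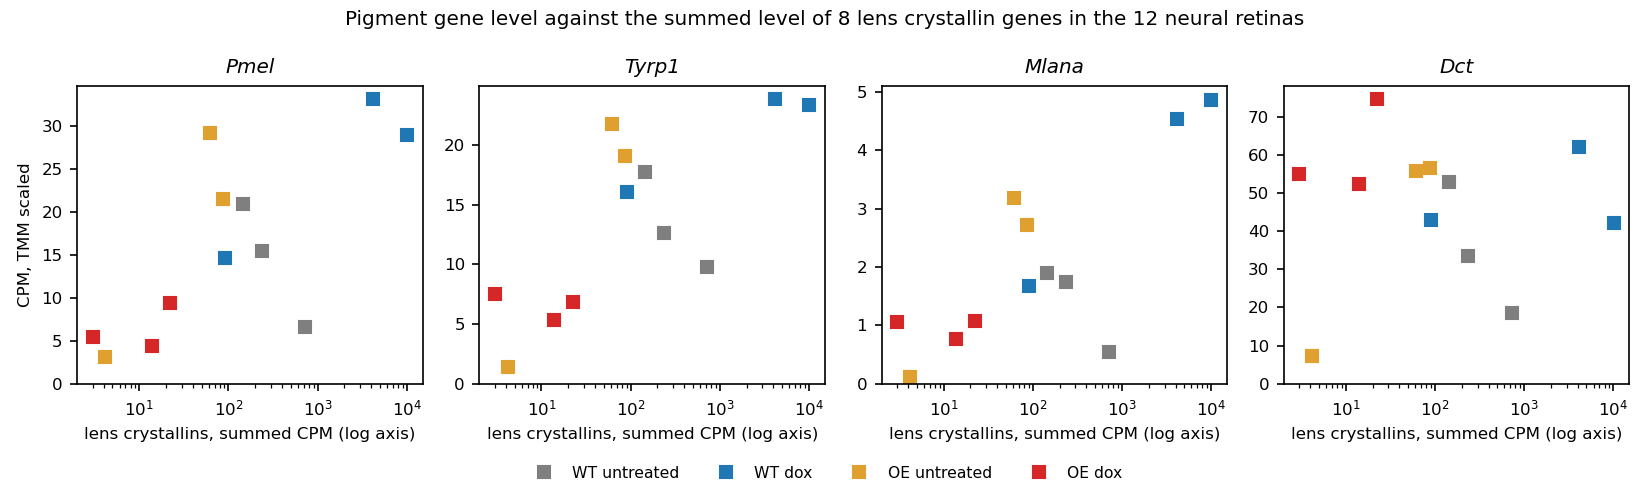
Level of Pmel, Tyrp1, Mlana and Dct (CPM) in the 12 neural retinas against the summed CPM of 8 lens crystallin genes on a log axis; each square is a library, coloured by group. The 2 wildtype dox retinas at 4167 and 10067 CPM of crystallin have the highest Mlana values, and the PRDM13-OE dox retinas have low Pmel, Tyrp1 and Mlana but Dct of 52.3 to 74.7 CPM.

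Dct therefore made up a larger share of the pigment gene counts in these retinas. Counts were not scaled to gene length here, so shares and ratios are compared between libraries only. Of the summed counts of the 10 genes, Dct held 65.0% to 68.9% in the PRDM13-OE dox retinas and between 31.6% and 49.1% in the other 9. Dct counts were 12.0, 7.90 and 10.1 times the Pmel counts in the PRDM13-OE dox retinas. The ratio was 1.46, 1.87 and 2.94 in wildtype with dox, 1.92, 2.32 and 2.62 in untreated PRDM13-OE and 2.83, 2.53 and 2.16 in untreated wildtype. The PRDM13-OE dox retinas lay above the other 3 groups, which overlapped each other. These ratios were chosen after their values were seen, and they do not depend on library scaling.

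The ratio of Dct to Tyrp1 gave the same order in the neural retinas, with 9.85, 10.9 and 7.33 in PRDM13-OE with dox and between 1.81 and 5.08 in the other 9. The upper end of the others came from untreated PRDM13-OE retina 2. The ratio of Dct to Mlana did not separate the groups in this way, with 67.6, 69.2 and 52.0 in PRDM13-OE with dox and 8.69 to 66.0 in the other 9, the highest of which was the same retina with 2 Mlana counts. In the eye cups the ratio of Dct to Tyrp1 was 3.78, 5.11 and 4.40 in PRDM13-OE with dox and between 2.41 and 3.42 in the other 9. PRDM13-OE with dox thus did not overlap the others there either, at a smaller distance than in the neural retinas. The untreated PRDM13-OE and untreated wildtype eye cups did not overlap in the ratio of Dct to Tyrp1 either, at a log2 difference of 0.14 (p = 0.1, exact permutation test). The ratio of Dct to Pmel in the eye cups did overlap, with 1.86 to 2.41 in PRDM13-OE with dox and 1.44 to 2.93 in the others.

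For PRDM13-OE against wildtype with dox, the log2 ratio of Dct to Pmel differed by 2.30 in the neural retina and that of Dct to Tyrp1 by 1.99 in the neural retina and 0.67 in the eye cup. For Dct to Mlana in the neural retina it differed by 2.10. The exact permutation test (two-sided) gave p = 0.1 for each, which is the smallest p that 3 against 3 libraries allow, so none could pass 0.05. Against untreated PRDM13-OE mice the log2 differences were 2.12, 1.45 and 0.46, also at p = 0.1 by the exact permutation test, and that of Dct to Mlana was 1.11 with overlapping groups (p = 0.2, exact permutation test). Both comparisons use the same PRDM13-OE dox libraries.

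**Figure D3:**
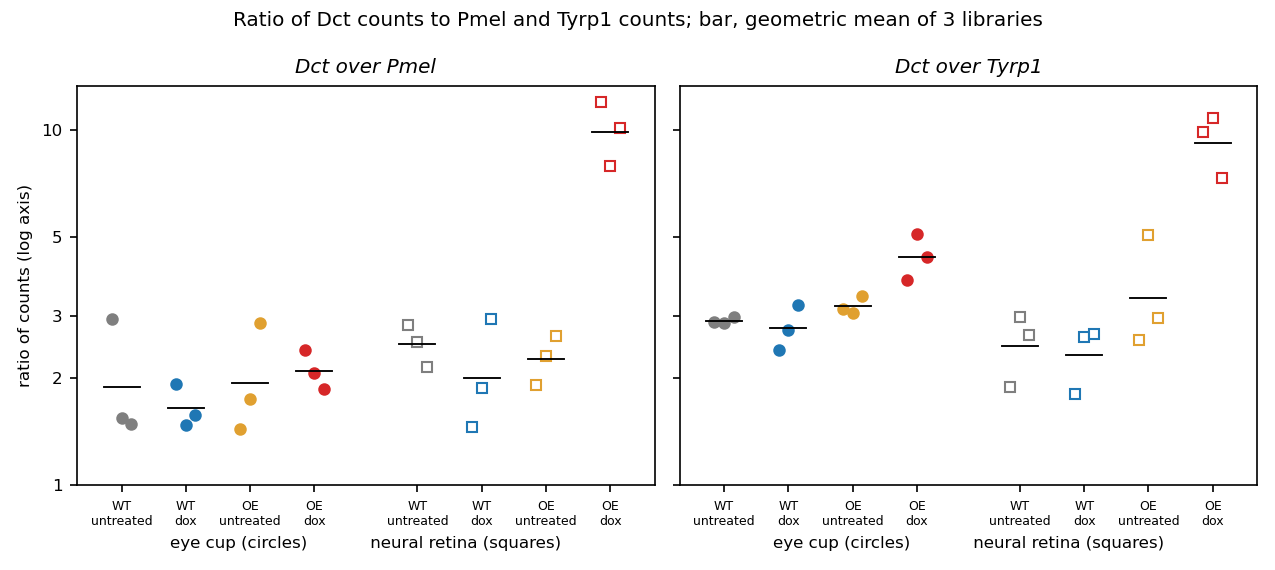
Ratio of Dct counts to Pmel counts (left) and to Tyrp1 counts (right) on a log axis in every library, by group; circles are eye cups, squares neural retinas and bars geometric means of 3 libraries. The PRDM13-OE dox retinas lie at 7.90 to 12.0 for Pmel and 7.33 to 10.9 for Tyrp1, above the other 9 neural retinas, and the PRDM13-OE dox eye cups are above the other 9 only for Tyrp1.

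Against untreated PRDM13-OE retinas, none of the 10 genes was called in the PRDM13-OE dox retinas by edgeR (1.04% of 20603 genes were called in either direction), and 1 of 10, Pmel, had an unadjusted p under 0.05 (15.6% of all genes). This rested on 1 library. Untreated PRDM13-OE retina 2 held 418 counts of the 10 genes together, where the other 11 neural retinas held 1182 to 2929, with 26 Tyrp1, 132 Dct, 57 Pmel and 2 Mlana counts. Its 114 Mitf counts lay within the range of the other libraries, and its 47 Slc24a5 counts were the lowest of the 12. Without it, Tyrp1 (−1.63, edgeR adjusted p = 2.68e-05), Pmel (−1.97, edgeR adjusted p = 0.000239) and Mlana (−1.59, edgeR adjusted p = 0.00750) were called lower, as were 0.869% of all genes. With the crystallin level as a covariate, Dct alone was called, and it was higher (1.70, edgeR adjusted p = 0.0145), as were 0.408% of all genes.

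Dox alone was compared in wildtype retinas. By edgeR 0 of 10 genes were called (0.00485% of 20631 genes were called in either direction), and 4 of 10 had an unadjusted p under 0.05 (9.32% of all genes). Of the 10 log2-fold changes 9 were above 0, with a median of 0.65, where the median of all genes was −0.01. Tyr was at 5.35, 7.40 and 5.23 CPM with dox and at 3.42, 4.56 and 2.68 CPM without, and these groups did not overlap (0.76, SE 0.22, edgeR adjusted p = 0.315). Mlana had the largest change, 1.41 (SE 0.44, edgeR adjusted p = 0.353), and its groups overlapped. Lens crystallins moved the same way, since 8 of 8 were above 0 with a median log2-fold change of 3.50. So did fibroblast genes, of which 6 of 6 were above 0 with an unadjusted p under 0.05 and a median of 0.87, and none was called. Their sum was 40.2 to 63.7 CPM with dox and 27.9 to 38.6 CPM without. The part of either list in these values was not tested.

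Untreated PRDM13-OE and untreated wildtype retinas were not separated by edgeR for any of the 10 genes, with 0 calls and 0 unadjusted p-values under 0.05 (0% and 3.76% of 20668 genes). The log2-fold changes lay between −0.31 and 0.61 with SEs of 0.16 to 0.68, so changes smaller than the spread of untreated PRDM13-OE retina 2 from its group could not be seen. The interaction of genotype and dox, which asks whether the genotype difference changed with dox, was called for none of the 10 by edgeR (0.87% of 22538 genes were called). Of the 10, 4 had an unadjusted p under 0.05 (14.4% of all genes): Tyrp1 at −1.75, Pmel at −2.31, Mlana at −2.43 and Slc45a2 at −1.50, with edgeR adjusted p from 0.131 to 0.268. Without untreated PRDM13-OE retina 2, Tyr, Tyrp1, Pmel and Mlana were called in the lower direction, as were 0.744% of all genes. With that retina kept, the interaction was below 0 for 8 of 8 lens crystallins (median −5.63), 8 of 10 rod genes (−0.39) and 7 of 7 endothelial genes (−0.51). Of these genes Kdr alone was called (−1.24). Their part in the pigment values was not tested.

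**Figure D4:**
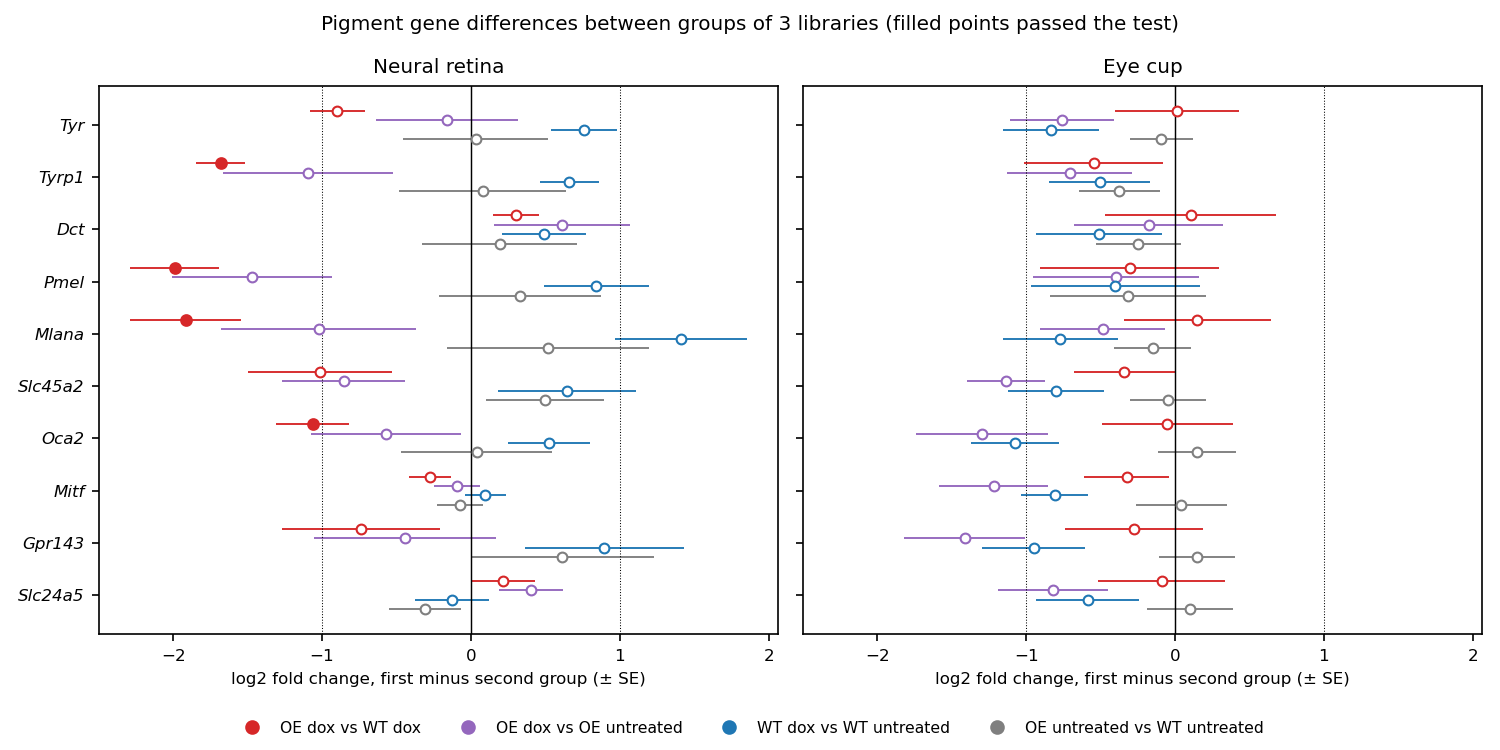
Log2-fold change of each pigment gene in 4 comparisons in the neural retina (left) and the eye cup (right), with SE bars; filled points passed an adjusted p of 0.05 and a log2-fold change of 1. Filled points are Tyrp1, Pmel, Mlana and Oca2 in the neural retina of PRDM13-OE against wildtype mice with dox, and in the eye cup the 2 comparisons of dox with untreated mice lie below 0 for all 10 genes.

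In the eye cups, where these genes are abundant, PRDM13-OE and wildtype mice with dox did not differ in any of the 10 beyond the spread between mice. By edgeR 0 were called and 0 had an unadjusted p under 0.05, where 0.0184% and 8.24% of 21758 genes did. Log2-fold changes ran from −0.55 (SE 0.47) for Tyrp1 to 0.15 (SE 0.50) for Mlana, and the SEs of the 10 were between 0.29 and 0.60. The summed level of the 10 genes was 2103, 4493 and 1493 CPM in PRDM13-OE and 1457, 2991 and 4790 CPM in wildtype, so both groups spanned about the same range. Leaving out the lowest eye cup of each group, an alternative chosen after seeing the data, also gave 0 calls, where 1.36% of all genes were called.

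Dox-treated eye cups were compared with untreated ones within each genotype, and no pigment gene passed the test in either. All 10 estimates lay below 0 in both in the fit without a covariate. In wildtype mice 10 of 10 log2-fold changes were below 0, with a median of −0.79 where that of all genes was −0.05. By edgeR 0 of the 10 were called (0% of 21799 genes), and 5 had an unadjusted p under 0.05 (29.9% of all genes), while 2 of the 10 had groups that did not overlap (37.2% of all genes). In PRDM13-OE mice 10 of 10 were below 0 as well, with a median of −0.79 where that of all genes was 0.05. By edgeR 0 were called (0.0139% of 21604 genes) and 4 had an unadjusted p under 0.05 (4.14% of all genes), while 6 of the 10 had groups that did not overlap (9.39% of all genes).

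These directions and calls depended on the setting. With the RPE level as a covariate, 9 of 10 wildtype log2-fold changes were above 0, up to 2.50 for Pmel, and Mitf was at −0.04. In PRDM13-OE mice 2 of 10 were above 0 with it, at a median of −0.27. None was called in either of these fits. The RPE sums of treated and untreated eye cups did not overlap, so the RPE level and dox can hardly be told apart in them. With the rod level as a covariate, 2 of 10 were above 0 in wildtype and 0 of 10 in PRDM13-OE. Without wildtype dox eye cup 3, Oca2 (−1.39, edgeR adjusted p = 0.0468), Mitf (−1.04, edgeR adjusted p = 0.0468) and Gpr143 (−1.40, edgeR adjusted p = 0.0472) were called lower, as were 2.69% of all genes.

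Oca2, Mitf, Gpr143 and Slc45a2 had an unadjusted p under 0.05 in both genotypes. Oca2 was at 42.5, 73.7 and 102 CPM in wildtype eye cups with dox and at 125, 155 and 153 CPM in untreated wildtype eye cups, groups that did not overlap (−1.07, SE 0.29, edgeR adjusted p = 0.0783). DESeq2 called it lower (−1.07, adjusted p = 0.0103), as it did 2.74% of all genes in this comparison. The background by edgeR depended on the setting here: 0 of all genes were called in the fit reported, 658 higher and 98 lower with library size in place of TMM, and 700 higher and 360 lower without the filter on low counts. In PRDM13-OE it was at 50.4, 107 and 40.3 CPM with dox and at 114, 180 and 193 CPM untreated, again without overlap (−1.30, SE 0.44, edgeR adjusted p = 0.975).

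Mitf, the regulator, was at 21.7, 30.5 and 40.6 CPM against 51.3, 56.0 and 46.1 CPM in wildtype (−0.81, SE 0.22, edgeR adjusted p = 0.0799) and had 427, 498 and 298 counts against 682, 711 and 1203 in PRDM13-OE (−1.22, SE 0.36, edgeR adjusted p = 0.975). Its groups did not overlap in CPM in either genotype. For Gpr143 the log2-fold changes were −0.95 (SE 0.34) in wildtype and −1.41 (SE 0.40) in PRDM13-OE, and for Slc45a2 they were −0.80 (SE 0.32) and −1.14 (SE 0.26). The most abundant genes had estimates nearer 0, at −0.40 (SE 0.57) and −0.40 (SE 0.56) for Pmel and −0.51 (SE 0.42) and −0.18 (SE 0.50) for Dct, with overlapping groups.

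Genes of the RPE outside melanin synthesis had medians further below 0 in the same eye cups, and none was called. Rpe65, the isomerase of the visual cycle, averaged 820 CPM with dox and 2235 CPM without in wildtype (−1.54, SE 0.35, edgeR adjusted p = 0.0673). In PRDM13-OE it averaged 564 CPM and 2186 CPM (−1.96, SE 0.49, edgeR adjusted p = 0.975). Over the 10 RPE genes the median log2-fold changes were −1.38 in wildtype and −1.27 in PRDM13-OE, and the exception was Best1, counted at low levels, with −0.40 and 0.04. Their summed levels were 11443 to 23908 CPM with dox against 34658 to 50819 CPM without in wildtype, and 9043 to 23220 against 25263 to 60729 CPM in PRDM13-OE.

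Within a library, Pmel was set against Rpe65. The ratio of Pmel to Rpe65 counts was 0.582, 1.25 and 1.04 in wildtype eye cups with dox and 0.258, 0.487 and 0.545 without. In PRDM13-OE it was 0.960, 1.32 and 0.824 with dox and 0.807, 0.472 and 0.131 without. The groups did not overlap in either genotype, and the exact permutation test gave p = 0.1, the smallest that 3 against 3 libraries allow. The ratios of Dct and Tyr to Rpe65 also did not overlap in either genotype. That of Oca2 to Rpe65 did not overlap in wildtype (p = 0.1, exact permutation test) and overlapped in PRDM13-OE (p = 0.2, exact permutation test), at 0.115, 0.130 and 0.0925 with dox and 0.0770, 0.0934 and 0.0613 without. These ratios were chosen after their values were seen.

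Retinal transcripts differed between these eye cups too. The 10 rod genes summed to 26379 to 48543 CPM in wildtype eye cups with dox and to 3012 to 25299 CPM in untreated ones, groups that did not overlap. In PRDM13-OE the ranges were 5453 to 36879 CPM with dox and 7038 to 22944 CPM without, which overlapped. Of the 5 melanocyte genes, 3 had log2-fold changes below 0 with dox and 2 above 0 in each genotype, and none was called. Sox10, a transcription factor of the neural crest lineage, averaged 82.0 CPM with dox and 177 CPM without in wildtype and 40.6 and 177 CPM in PRDM13-OE, without overlap. Kit averaged 46.5 and 56.4 CPM in wildtype and 68.7 and 45.4 CPM in PRDM13-OE. Of 7 endothelial genes, 6 were below 0 in wildtype (median −0.90, 5 at an unadjusted p under 0.05) and 7 in PRDM13-OE (median −0.29, 0 at such a p), although their sums overlapped. Of 6 fibroblast genes, 6 were below 0 in wildtype (median −0.60) and 6 in PRDM13-OE (median −0.92), with 3 and 1 at an unadjusted p under 0.05. Over all genes, 29.9% had such a p in wildtype and 4.14% in PRDM13-OE. No gene of either list was called. The part of the RPE, melanocyte, rod, endothelial and fibroblast levels in the pigment values was not tested.

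**Figure D5:**
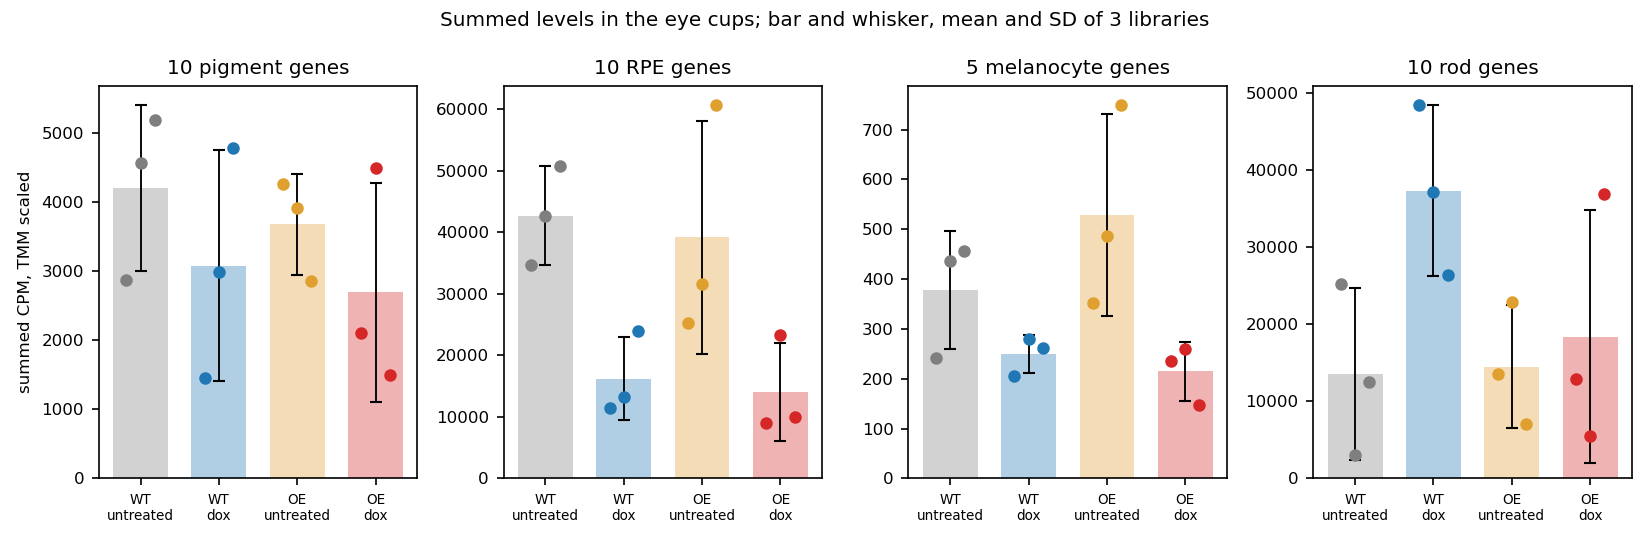
Summed CPM of the 10 pigment genes, 10 RPE genes, 5 melanocyte genes and 10 rod genes in the eye cups, by group; points are libraries, bars means and whiskers SDs of 3 libraries, from 0. The RPE sums of dox-treated eye cups (9043 to 23908 CPM) lie below those of untreated ones (25263 to 60729 CPM), while the pigment sums overlap.

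Untreated PRDM13-OE and wildtype eye cups had log2-fold changes between −0.37 (Tyrp1, SE 0.27) and 0.15 (Gpr143, SE 0.26). By edgeR 0 of 10 were called and 0 had an unadjusted p under 0.05, where 0% and 1.87% of 21588 genes did. The interaction of genotype and dox in the eye cups was called for 0 of 10 genes (0% of 23837), with 0 unadjusted p-values under 0.05 (6.4% of all genes) and SEs of 0.45 to 0.89. Effects smaller than these errors could not be seen with 3 eye cups a group. An estimate beyond its SE, as for Tyrp1 in untreated eye cups, was not called either, so the limit lies above the SE.

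The 26 other melanosome genes, which serve organelle biogenesis, transport and channels, were split between the tissues. In the eye cups 9 were called higher and 2 lower, beside 24.2% and 18.4% of all genes. The highest per kilobase were Tspan10, at 411 CPM in the eye cup and 3.73 CPM in the neural retina (6.77, SE 0.30), and Gpnmb, a relative of Pmel, at 458 and 15.6 CPM (4.94, SE 0.32). Rab27a and Mlph, which with Myo5a link melanosomes to actin, were higher in the eye cup by 4.11 (SE 0.15) and 5.15 (SE 0.29), and Rab38 by 2.98 (SE 0.26), while Myo5a, which neurons also use, had a log2-fold change of −1.63 (SE 0.15). The lowest per kilobase were Bloc1s1 and Atp7a, at 0.707 and 0.883 CPM per kb. Of the subunits of the BLOC-1 complex other than Bloc1s1 and of the HPS genes other than Hps1, none passed both cutoffs.

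In the dox-treated neural retinas 3 of these 26 genes were called lower in PRDM13-OE than in wildtype, beside 1.5% of all genes. Slc7a11, a cystine transporter, was at 5.31 against 13.2 CPM (−1.31, SE 0.27, edgeR adjusted p = 0.00729), Gpnmb at 8.35 against 20.6 CPM (−1.30, SE 0.24, edgeR adjusted p = 0.00423) and Tspan10 at 2.50 against 5.29 CPM (−1.07, SE 0.28, edgeR adjusted p = 0.0282). For each, the groups did not overlap, and lens crystallin differed between these libraries as given above. The median of the 26 was −0.05, where that of all genes was 0.01. In the 5 eye cup comparisons none of the 26 was called by edgeR, with 1 to 7 at an unadjusted p under 0.05. The 7 were in dox-treated against untreated wildtype mice, where 29.9% of all genes had such a p.

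Of 7 genes of melanocyte signalling and lineage, 6 were tested in the dox-treated retinas, since Pax3 had too few counts. Mc1r, the melanocortin receptor that shifts melanin type in melanocytes, was the only one of them called, and it was higher. Its mean was 9.44 CPM with the transgene and 3.54 CPM without (1.41, SE 0.15, edgeR adjusted p = 8.89e-05), with 169 to 188 counts against 55 to 74, and 0.905% of all genes were called in that direction. Its interaction of genotype and dox was also called (1.13, SE 0.25, edgeR adjusted p = 0.0143). Unlike the pigment genes, Mc1r was lower in the eye cup than in the neural retina (−1.62, SE 0.24), at 9 to 79 counts an eye cup. Tubb3, a neuronal tubulin gene, starts 679 bases beyond Mc1r on the same strand, with 3746 to 3899 counts in the PRDM13-OE and 3708 to 3839 in the wildtype dox retinas.

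Among the same genes in the dox-treated retinas, Ednrb (−0.72, SE 0.21, edgeR adjusted p = 0.0436) and Kitl (−0.48, SE 0.13, edgeR adjusted p = 0.0284) passed the adjusted p alone. Between the tissues Sox10 (6.90, SE 0.37), Pax3 (6.01, SE 0.69), Edn3 (4.75, SE 0.27), Ednrb (4.29, SE 0.21) and Kit (2.39, SE 0.24) were called higher in the eye cup. The highest of the list per kilobase in the eye cups were Sox10 and Ednrb, both at 39.1 CPM per kb, and the lowest were Pax3 and Mc1r, at 0.0976 and 0.485 CPM per kb. Of the MITF relatives, Tfeb was higher in the eye cup (1.95, SE 0.12), Tfe3 had a log2-fold change of 0.06 and Tfec was listed at 0 counts in all neural retinas. None of them was called between genotypes or treatments.

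Across the 12 eye cups the 10 pigment genes varied together. On log2(CPM + 1), the Pearson r with their mean profile ran from 0.79 for Pmel to 0.98 for Tyr, and the pairwise r had a median of 0.83 (0.37 to 0.97 over 45 pairs). Each of the genes is part of that mean profile, which by itself raises its r. In the 12 neural retinas the pairwise median was 0.48 (−0.34 to 0.95), and the pair of Slc45a2 and Slc24a5 had the lowest value. The genes outside the list most like the mean profile in the eye cups were Uap1l1 (r = 0.97), A2m (0.97), Iqgap2 (0.97), Degs1 (0.96) and Ociad2 (0.96). Ranked by Spearman's rho, the first 5 shared 0 genes with these, and Siglecf led (0.98). All points share the dissection and the amount of RPE in a library, and groups are pooled, so these values are a description.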

How the data were processed

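Poly-A RNA of the neural retina and eye cup of 12 mice was sequenced for the authors by Novogene. The submitters' processing notes name HISAT2, CASAVA and GRCm39, and the counting tool and annotation release are not given in the sources used here. The authors deposited read counts per gene, not normalized, which entered every test, and FPKM, used only as an alternative scale of levels: it equals count over length and library total times a library factor of 0.863 to 1.26. The 60 deposited columns of group comparisons were not used.

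The quasi-likelihood test of edgeR 4.0.16 (R 4.3.3, TMM factors) took every gene whose counts in a comparison summed to 10 or more, and its p-values were adjusted by Benjamini-Hochberg over all of these. SE is the log2-fold change over the root of F. To be called, a gene needed adjusted p below 0.05 together with a change of more than 1 on the log2 scale. Only the groups compared entered a fit, and the interaction used the 12 libraries of a tissue and the tissue comparison all 24. Ratios of counts used exact permutation tests (scipy 1.17.1). Alternatives were DESeq2 1.42.0, library size, no filter, filterByExpr, robust fitting, one fit per tissue of its 12 libraries, rod, lens and RPE levels as covariates, no fold cutoff, a block on mouse number or mouse, and leaving out libraries. On simulated counts with 200 genes changed by a log2-fold change of 2, edgeR recovered 99.0% in the retina dox comparison (8 false calls of 20115 genes), 70.5% in the eye cup dox comparison (10 of 21147, where DESeq2 recovered 87.0% with 59 false calls) and 98.5% between tissues (1 of 25386). Libraries are separate mice, and retina and eye cup of a mouse carry 1 number, so the tissue comparison was also fitted with the mouse as a block (correlation of deviations between a mouse's tissues 0.00 to 0.19, median 0.10), and this changed no call among the 10 genes.

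The 10 genes and the gene lists were chosen with earlier results of these data known. All 10 were reported in every comparison. From the other lists, called genes (up to 5 of the largest change) and the 2 highest and 2 lowest per kilobase in the eye cups could be named, and the 5 genes most like the mean profile; genes named beyond this (Myo5a, Rlbp1, Kdr, and examples of a cell type) were chosen after their values were seen. Total counts were 15825059 to 24908314 a library. Precision is limited by 3 libraries a group.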

Additional observations from a re-analysis of the deposited data

How the results depend on the processing

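A gene uncalled under both settings was counted as unchanged whatever its sign. Over 2034 pairs of a pigment gene and an alternative, 2002 kept their side of the cutoffs, 12 lost a call, 20 gained one and 0 reversed a call, and 137 uncalled values changed sign. In the neural retina with dox, PRDM13-OE against wildtype, 4 of the 10 genes were called. The alternatives gave 2 with all 12 retinas in one fit, 1 with the lens covariate, 2 without the 2 retinas of most lens crystallin, and 3 to 4 when any 1 library was left out. Robust fitting lost Pmel (adjusted p = 0.0778), and library size lost Oca2 (−0.97), as did leaving out PRDM13-OE dox retina 3 (−0.99) or wildtype dox retina 2 (−0.89). Wildtype with dox against untreated retinas had 0 calls and 1 without the filter, where 153 of all genes were called higher and 33 lower against 1 in all in the fit reported. PRDM13-OE with dox against untreated retinas had 0 calls, 2 without the filter (120 of all genes higher and 209 lower, against 86 and 128), 1 with the lens covariate and 0 to 3 over single libraries left out. The retinal interaction had 0 calls, 3 without the filter (153 of all genes higher and 311 lower, against 196 in all) and 0 to 4 over single libraries left out, with 4 when untreated PRDM13-OE retina 2 was absent. Wildtype eye cups with dox against untreated ones had 0 calls, 1 with DESeq2, 1 without the filter and 0 to 3 over single libraries left out, where 3 (Oca2, Mitf and Gpr143) came without wildtype dox eye cup 3. The cause was not tested. The 10 calls between tissues stayed at 10 under every alternative run, untreated wildtype libraries alone included. Library size in place of TMM moved the median of all genes by 0.18 in dox-treated against untreated wildtype eye cups, by 0.11 in PRDM13-OE eye cups and by −0.18 between tissues, and turned the direction of no call among the 10 genes. Mouse numbers do not pair different mice (correlations −0.54 to 0.64, median 0.01), and a replicate block on the number left 4 calls in the retina with dox and 0 in the other 9 comparisons, while a block on the mouse left 10 between tissues. Retinal values of Gpr143 and Slc45a2 rest on 3 to 28 counts, which limits what could be seen.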
